A study of Rattus norvegicus with 12 samples.

Results

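The 34 genes described here carry glucose into the cell, break it down to pyruvate and lactate, move lactate across the membrane and decide whether pyruvate enters the mitochondrion. They come from a list of named genes, ordered step by step along the pathway, and all 34 were among the 17315 genes of the deposited count files. Polyadenylated RNA had been sequenced from 12 rat cultures described as Müller cells, to compare a spontaneously immortalized line with primary cells and with an older line. The primary cultures, labelled Primary MC, were 4 libraries at passage 3 or 4 from Sprague-Dawley rat pups of postnatal day 2-4. They grew in 20% serum, with gentamicin at 87 mg/L and amphotericin B at 2.2 mg/L. SIRMu-1 was 5 libraries of 1 line, from pups of the same strain and age, also in 20% serum, at passages 6, 11, 11, 11 and 20 for replicates 1 to 5. Its replicates 3 and 5 had both drugs at the same doses, and the other 3 had neither. The rMC-1 group was 3 libraries of 1 line from adult Sprague-Dawley rats, at passages 23, 26 and 26, in 10% serum with neither drug. As background, that line is known to carry the SV40 large T antigen. Glucose was at 25 mM and L-glutamine at 2 mM in all 12 cultures, and no group was kept at low glucose. Age, serum, drugs and passage differ between rMC-1 and the primary cultures together with the line, and their effects cannot be told apart. The same holds for passage between SIRMu-1 and the primary cultures, and for age, serum and passage between the lines. The drugs also differ between the primary cultures and the 3 drug-free SIRMu-1 libraries, and between rMC-1 and SIRMu-1 replicates 3 and 5.

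Glycolysis turns glucose into pyruvate in the cytosol. Glucose transporters bring it in, hexokinases trap it as a phosphate, phosphofructokinase commits it, and the later enzymes harvest ATP and NADH. Pyruvate is then reduced to lactate by lactate dehydrogenase, which restores NAD+, or oxidized by the mitochondrial pyruvate dehydrogenase complex, which pyruvate dehydrogenase kinases switch off. Müller cells, the radial glia that span the retina, are known for making much lactate even in oxygen, and the export of that lactate to photoreceptors has long been debated. RNA levels give neither the flux nor the protein.

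Many of these genes are known targets of hypoxia-inducible factor, whose response element has the core ACGTG, and of MYC and its relatives, which bind the E-box CACGTG. The E-box holds the ACGTG core, so their matches overlap. Start-site windows of 250 bases before to 50 bases after the annotated start were read from RefSeq on GRCr8 for 30 of the 34 genes, with no entry for Slc2a3, Akr1b1, Pgk1 and Txnip. Some genes have several starts, which gives 34 windows for the 30 genes. On either strand, ACGTG stood in 17 of these 34 windows, against 6444 of all 33465 windows (19.3%). The E-box stood in 5 of the 34, against 2148 of all windows (6.42%). All windows were taken without matching for base composition or expression, and neither difference was tested. The windows of 4 genes are shown, those of a glucose importer, a lactate-forming enzyme and both lactate carriers, because their levels are given library by library below. They are Slc2a1 at chr5:138002272-138002571, Ldha at chr1:106507842-106508141, Slc16a1 at chr2:194812410-194812709 and Slc16a3 at chr10:106712078-106712377. All are on the plus strand of GRCr8, 5′ to 3′, with matches to ACGTG or its reverse complement in capitals.
Slc2a1: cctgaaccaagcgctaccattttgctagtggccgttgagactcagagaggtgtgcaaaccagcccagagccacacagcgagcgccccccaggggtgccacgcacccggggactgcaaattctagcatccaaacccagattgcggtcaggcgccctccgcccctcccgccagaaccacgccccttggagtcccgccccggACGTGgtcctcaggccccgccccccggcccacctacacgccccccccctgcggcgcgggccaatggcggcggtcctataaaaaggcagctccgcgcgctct
Ldha: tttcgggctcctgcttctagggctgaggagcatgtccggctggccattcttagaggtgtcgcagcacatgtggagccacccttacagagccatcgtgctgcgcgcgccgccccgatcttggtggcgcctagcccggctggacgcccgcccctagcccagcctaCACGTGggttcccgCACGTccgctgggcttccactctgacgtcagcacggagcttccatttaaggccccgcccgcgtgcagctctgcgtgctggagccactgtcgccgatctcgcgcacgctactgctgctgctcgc
Slc16a1: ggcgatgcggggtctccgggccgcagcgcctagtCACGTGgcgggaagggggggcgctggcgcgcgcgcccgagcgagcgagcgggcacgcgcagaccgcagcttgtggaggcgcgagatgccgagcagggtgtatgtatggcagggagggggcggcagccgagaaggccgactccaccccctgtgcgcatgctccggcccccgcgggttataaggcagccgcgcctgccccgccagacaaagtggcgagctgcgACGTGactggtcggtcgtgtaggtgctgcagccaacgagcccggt
Slc16a3: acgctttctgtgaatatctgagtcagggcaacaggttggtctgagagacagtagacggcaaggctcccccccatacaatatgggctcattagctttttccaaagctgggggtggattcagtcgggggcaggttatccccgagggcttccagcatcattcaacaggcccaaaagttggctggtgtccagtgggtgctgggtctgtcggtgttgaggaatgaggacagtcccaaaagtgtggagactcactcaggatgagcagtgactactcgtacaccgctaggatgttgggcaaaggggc

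The Slc2a1 window holds 1 match. That of Ldha holds an E-box with a second ACGTG core close by, and that of Slc16a1 an E-box far upstream and an ACGTG core just inside the transcript. The Slc16a3 window holds no match. A match says only that these letters are there, and its absence only that they are not in this window.

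Reads counted in genes numbered 22582345 to 29812705 for Primary MC, 26349346 to 36730443 for SIRMu-1 and 27351014 to 38125630 for rMC-1 libraries. The 34 genes together took 0.448% to 0.79% of them in Primary MC, 0.396% to 0.495% in SIRMu-1 and 0.695% to 0.833% in rMC-1. Levels below are CPM, with library sizes put on one scale by the TMM method of edgeR, and means are ± SD over 4 Primary MC, 5 SIRMu-1 or 3 rMC-1 libraries. Changes are log2 fold changes ± SE from edgeR's quasi-likelihood test. A gene is called where its p-value, adjusted (Benjamini-Hochberg) over the 11321 genes tested, is under 0.05. Where a library is left out or another scaling is used, the change stands in brackets, followed by its edgeR adjusted p where that is given. CPM is not corrected for gene length, so levels are compared between cultures and never between genes. The scale matters for rMC-1. With plain library totals in place of TMM, the median of all genes moved by 0.47 (log2) in rMC-1 against Primary MC, by -0.45 in SIRMu-1 against rMC-1 and by 0.03 in SIRMu-1 against Primary MC.

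Of 15 Müller glia markers, 11 were above 1 CPM in every Primary MC library and 8 in every library of each line. Sox2, Car2, Aqp4 and Kcnj10 had no count in SIRMu-1, and Car2 and Aqp4 none in rMC-1. Their summed CPM was 8477 to 9838 in Primary MC, 3697 to 4912 in SIRMu-1 and 1925 to 2082 in rMC-1. Of 8 fibroblast genes, all 8 were above 1 CPM in every Primary MC library, 6 in every SIRMu-1 library and 5 in every rMC-1 library. For these 8 genes the sum was 72010 to 192800, 69050 to 93540 and 4711 to 6598 in the same order. For 7 cell cycle genes it was 69.3 to 93.9, 201 to 1067 and 3221 to 3560. For pericyte and smooth muscle genes it was 9964 to 14540, 6901 to 16440 and 1440 to 3666. Genes of inner retinal neurons summed to 201 to 1250, 52 to 92.5 and 114 to 173, and endothelial genes to 2.86 to 11.7, 26.1 to 46.2 and 1.55 to 2.45. Pigment epithelium genes summed to at most 26.6, microglia and macrophage genes to at most 12.8 and photoreceptor genes to at most 5.19. Several of these sums, such as those of Müller glia and cell cycle genes, move with the kind of culture and so with the results below. Others overlap between cultures, as those of fibroblast and pericyte genes do between Primary MC and SIRMu-1. The part of these sums in the results was not tested.

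In SIRMu-1, 13 of the 32 tested genes were lower than in the primary cultures and 1 higher, with a median log2 fold change of -0.40, against -0.02 for all genes. The lower genes lay at many steps, from the importer Slc2a1 and both hexokinases to the lactate carriers and 2 pyruvate dehydrogenase kinases. These calls are 43.8% of the 32 genes, where 46.1% of all genes tested were called, 21.7% higher and 24.4% lower. In rMC-1 the genes split, with 12 higher, 8 lower and a median of 0.01, against -0.15 for all genes. That is 62.5% of the 32 genes, where 70.8% of all genes were called, 31.9% higher and 38.9% lower. SIRMu-1 against rMC-1 gave 5 higher and 14 lower, with a median of -0.39 against 0.03 for all genes, of which 63.2% were called, 32.7% higher and 30.5% lower. On the TMM scale the number of calls was thus below the background in each comparison, and what can be described is their direction. With library totals the higher and lower genes numbered 1 and 12 in SIRMu-1, 14 and 5 in rMC-1, and 4 and 24 in SIRMu-1 against rMC-1. That scale called 13, 19 and 28 of the 32 genes in this order, and 5077, 8207 and 7551 of the 11321 genes tested. Between the lines the share was thus above that of all genes. Of all genes called on that scale, 49.1%, 61.9% and 30.8% were higher, where TMM gave 47%, 45.1% and 51.7%. The groups did not overlap at all in 10, 18 and 19 of the 32 genes in the 3 comparisons, where 35.3%, 70.9% and 63% of all genes did not. The comparisons share groups, so their results are not independent of each other. In bulk RNA, fewer cells of a type and less RNA per cell cannot be told apart.

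Pfkfb1 alone was higher than in Primary MC in both lines, and 4 genes were lower in both: Hk1, Pfkfb3, Slc16a3 and Pdk4. Another 5, Slc2a1, Pfkl, Aldoc, Slc16a1 and Pdk2, were lower in SIRMu-1 and higher in rMC-1. Hk2, Gpi, Pfkp and Pgk1 were lower in SIRMu-1 without a call in rMC-1. Conversely, Tpi1, Pfkfb4, Gapdh, Pgam1, Pdk1 and Pdk3 were higher, and Aldoa, Pfkfb2, Ldhb and Pgd lower, in rMC-1 without a call in SIRMu-1. The remaining 8 tested genes were called in neither line: Pfkm, Eno1, Pkm, Ldha, Pdha1, Pdhb, Txnip and Akr1b1. How many of all genes show each of these patterns was not counted, so whether these numbers are unusual is not known. Both comparisons also share the Primary MC libraries. Slc2a3 and Eno2 were not tested, since no group had enough counts. The filter's minimum of 0.349 CPM was passed in all 12 libraries by 28 of the 34 genes. Slc16a3 and Pdk4 passed it through the Primary MC libraries, Aldoc through Primary MC and rMC-1, and Tpi1 mainly through rMC-1, so a difference in these 4 was in part built into the filter.

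**Figure D1:**
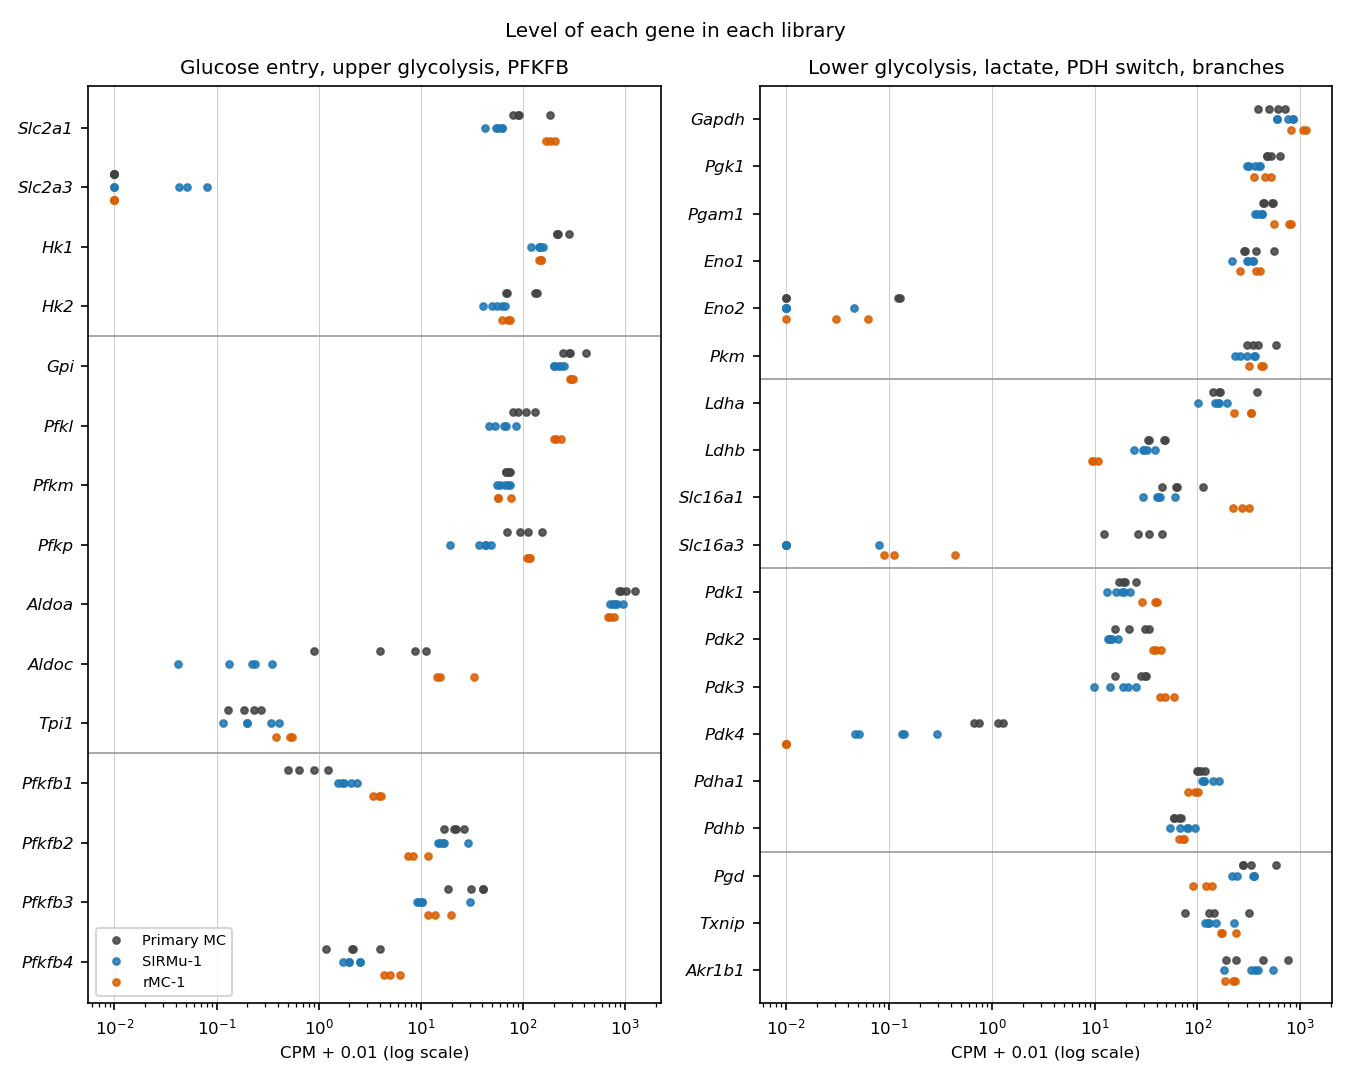
Level of each of the 34 genes in each library, as CPM plus 0.01 on a log axis (x), with genes in pathway order (y) and points coloured by group. A point at the left edge is a library with no count. Slc16a3 lies between 12.3 and 45 CPM in Primary MC and under 1 CPM in both lines, and Slc16a1 and Ldhb in rMC-1 lie apart from the other 2 groups on opposite sides.

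**Figure D2:**
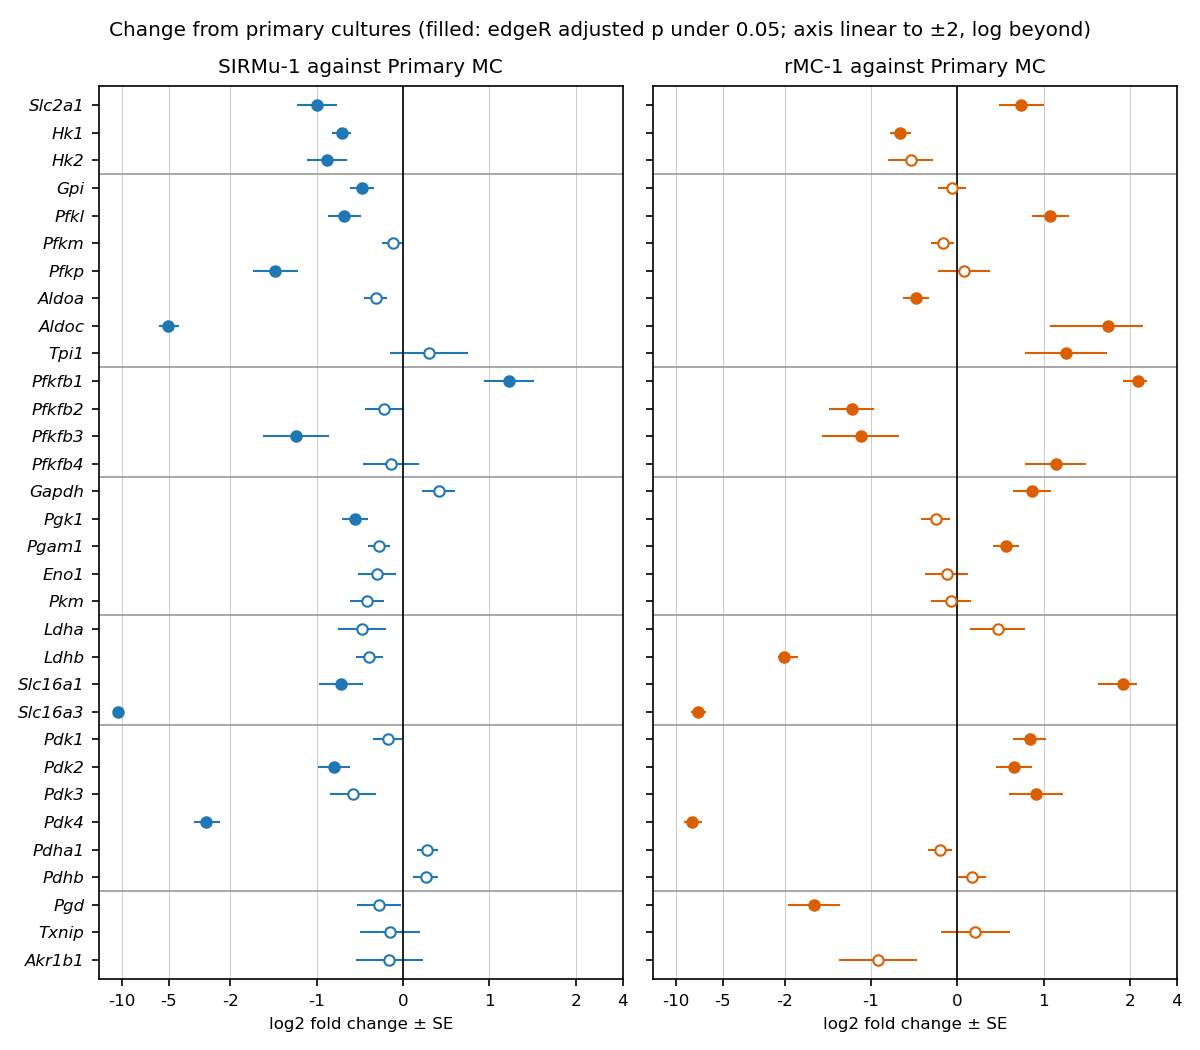
Log2 fold change ± SE against Primary MC (x) for the 32 tested genes (y), SIRMu-1 on the left and rMC-1 on the right. Filled points passed the edgeR threshold, and the axis is linear to ±2 and logarithmic beyond. On the left 13 filled points lie below 0 and 1 above, and on the right 8 below and 12 above. The fitted values of Slc16a3 and, in rMC-1, of Pdk4 depend on the prior count, since a group had few or no counts.

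Glucose entry was lower at all 3 tested genes in SIRMu-1, where 24.4% of all genes were lower. Slc2a1 encodes GLUT1, the main glucose importer of glia. It was at 90.2, 91.5, 79.1 and 184 CPM in Primary MC replicates 1 to 4, at 54.8, 62.2, 62.5, 56.6 and 42.6 in SIRMu-1, and at 170, 184 and 204 in rMC-1. The SIRMu-1 libraries all lay below Primary MC, whose replicate 4 was at the rMC-1 level while the other 3 lay below it. Slc2a1 was lower in SIRMu-1 by -1.0 ± 0.23 (edgeR adjusted p = 0.00395), or -0.65 without Primary MC replicate 4. It was higher in rMC-1 by 0.74 ± 0.26 (edgeR adjusted p = 0.0209), a call lost without Primary MC replicate 1 (0.65, 0.0569), 2 (0.66, 0.0555) or 3 (0.61, 0.0537). The lines differed by -1.74 ± 0.24 (edgeR adjusted p = 7.25e-05). Slc2a3, for GLUT3, the high-affinity transporter of neurons, had 4 counts over all SIRMu-1 libraries and none in the other groups. A count of 0 allows up to 0.0309 CPM over the Primary MC group.

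The hexokinases phosphorylate glucose and keep it in the cell. Hk1 measured 222, 216, 215 and 283 CPM in Primary MC, 156, 121, 148, 144 and 147 in SIRMu-1, and 145, 152 and 149 in rMC-1. Every library of both lines was below every primary one. The change was -0.71 ± 0.11 in SIRMu-1 (edgeR adjusted p = 0.000299) and -0.66 ± 0.12 in rMC-1 (edgeR adjusted p = 0.000533), the latter not called with library totals (-0.19, 0.307). Hk2, the isozyme that insulin and hypoxia are known to induce, was at 68, 70.6, 130 and 137 CPM in Primary MC, 50.3, 40.2, 62.3, 55.9 and 66.2 in SIRMu-1, and 74.7, 62.7 and 71.4 in rMC-1. The Primary MC libraries formed a lower and a higher pair, and SIRMu-1 lay under both. Hk2 was lower in SIRMu-1 by -0.88 ± 0.23 (edgeR adjusted p = 0.00758). In rMC-1 its value of -0.54 ± 0.26 (edgeR adjusted p = 0.0797) was called only without Primary MC replicate 1 (-0.70, 0.0265) or 2 (-0.69, 0.0319). The log2 ratio of Hk2 to Hk1 within a library, which no scaling can move, was -1.27 ± 0.47 in Primary MC, -1.40 ± 0.21 in SIRMu-1 and -1.10 ± 0.17 in rMC-1, with overlapping groups.

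Phosphofructokinase, the committed step, is built from 3 subunit genes, and each followed its own course. Pfkl, the liver-type subunit, was at 80.6, 132, 89.6 and 107 CPM in Primary MC, 53.2, 46.2, 67.8, 65.4 and 86 in SIRMu-1, and 237, 201 and 210 in rMC-1. All rMC-1 libraries were above all others, and Primary MC and SIRMu-1 overlapped at SIRMu-1 replicate 5. The change was -0.68 ± 0.19 in SIRMu-1 (edgeR adjusted p = 0.0105) and 1.08 ± 0.21 in rMC-1 (edgeR adjusted p = 0.000704). Pfkp, the platelet-type subunit, measured 113, 93.9, 69.2 and 154 CPM in Primary MC, 37.3, 19.5, 43, 49.2 and 43.5 in SIRMu-1, and 114, 111 and 116 in rMC-1. SIRMu-1 lay under all others, by -1.48 ± 0.26 against Primary MC (edgeR adjusted p = 0.000858), while rMC-1 gave 0.08 ± 0.30 (edgeR adjusted p = 0.812). Pfkm, the muscle-type subunit, had the smallest ratio of highest to lowest level among the 34 genes, with 55.8 to 76.3 CPM over all 12 libraries. Its values of -0.12 ± 0.12 in SIRMu-1 and -0.17 ± 0.13 in rMC-1 were not called. The mixture of subunit RNAs differed accordingly. The log2 ratio of Pfkm to Pfkl was -0.50 ± 0.29 in Primary MC, 0.07 ± 0.33 in SIRMu-1 and -1.77 ± 0.34 in rMC-1, with no overlap between groups.

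Among the other upper enzymes, aldolase, which splits the 6-carbon sugar, showed a difference between isozymes. Aldoc, the brain-type aldolase that marks glia, was at 3.98, 11.2, 0.894 and 8.81 CPM in Primary MC, 0.213, 0.0315, 0.124, 0.23 and 0.337 in SIRMu-1, and 15.5, 32.9 and 14.4 in rMC-1. The groups did not overlap, with 620, 26 and 2690 counts in this order. Aldoc passed the expression filter through Primary MC and rMC-1, so a difference of SIRMu-1 from them was in part built into the filter. The level summed over Primary MC was 34.7 times that of SIRMu-1 (95% counting interval 23.4 to 53.5; edgeR adjusted p = 0.000238). That of rMC-1 was 3.47 times that of Primary MC (3.17 to 3.79), but the interval covers counting error alone and the primary libraries spread more widely. The fitted rMC-1 change of 1.75 ± 0.67 (edgeR adjusted p = 0.0332) was not called without Primary MC replicate 1 (1.58, 0.078) or rMC-1 replicate 2 (1.34, 0.138). Aldoa, the ubiquitous isozyme, stayed within 679 to 1242 CPM. In SIRMu-1 it gave -0.32 ± 0.13 (edgeR adjusted p = 0.0598), called without Primary MC replicate 2 (-0.38, 0.0369) or SIRMu-1 replicate 5 (-0.40, 0.0212). In rMC-1 it was lower by -0.48 ± 0.15 (edgeR adjusted p = 0.0114), a call lost without rMC-1 replicate 1 (-0.40, 0.0626) or 2 (-0.35, 0.0842) and with library totals (-0.01, 0.945).

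Gpi, which turns glucose 6-phosphate into the fructose form, was at 248, 284, 287 and 418 CPM in Primary MC, 200, 235, 219, 203 and 250.7 in SIRMu-1, and 292, 306 and 294 in rMC-1. It was lower in SIRMu-1 by -0.48 ± 0.14 (edgeR adjusted p = 0.0158), or -0.31 without Primary MC replicate 4, and gave -0.06 ± 0.16 in rMC-1 (edgeR adjusted p = 0.764). Tpi1, which interconverts the 3-carbon products, had only 19, 34 and 58 counts in Primary MC, SIRMu-1 and rMC-1. Its rMC-1 call (1.26 ± 0.48, edgeR adjusted p = 0.0322) was lost without Primary MC replicate 1 (1.08) or 4 (1.21), without rMC-1 replicate 1 (1.27) or 2 (1.23), and in DESeq2's test (adjusted p = 0.0718). RefSeq lists 3 pseudogenes named after Tpi1 and 9 after Aldoa. The files set aside reads that map to several places, so the counts of these genes are uncertain.

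The PFKFB enzymes make and remove fructose 2,6-bisphosphate, the activator of phosphofructokinase, and the 4 genes went different ways. Pfkfb1, the liver-type gene, was at 1.22, 0.487, 0.626 and 0.881 CPM in Primary MC, 2.38, 1.54, 1.78, 2.04 and 1.69 in SIRMu-1, and 4.10, 3.92 and 3.40 in rMC-1. The levels were low but the 3 groups did not overlap. It was higher by 1.23 ± 0.29 in SIRMu-1 (edgeR adjusted p = 0.00529) and by 2.24 ± 0.32 in rMC-1 (edgeR adjusted p = 7.42e-05). Pfkfb2, the heart-type gene, was at 16.7 to 26.2 CPM in Primary MC, 14.8 to 28.9 in SIRMu-1, and 7.55, 11.7 and 8.45 in rMC-1. It was lower in rMC-1 by -1.22 ± 0.26 (edgeR adjusted p = 0.00127) and not called in SIRMu-1 (-0.22 ± 0.22, edgeR adjusted p = 0.443). Pfkfb4 was at 1.16 to 4.01 CPM in Primary MC, 1.73 to 2.53 in SIRMu-1 and 4.93, 6.31 and 4.32 in rMC-1, higher in rMC-1 by 1.14 ± 0.35 (edgeR adjusted p = 0.0129).

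Pfkfb3, the inducible isozyme that favours glycolysis most, was at 31, 40.9, 18.4 and 40.4 CPM in Primary MC, 9.67, 30.2, 10.2, 10.2 and 9.07 in SIRMu-1, and 11.7, 19.8 and 13.6 in rMC-1. SIRMu-1 replicate 2 lay within the primary range and the other 4 SIRMu-1 libraries below it. Pfkfb3 was lower in SIRMu-1 by -1.24 ± 0.38 (edgeR adjusted p = 0.0204), a call lost without Primary MC replicate 2 (-1.11, 0.0556) or 4 (-1.12, 0.0523). It was lower in rMC-1 by -1.12 ± 0.45 (edgeR adjusted p = 0.0416). That call was lost without Primary MC replicate 1 (-1.15, 0.0591), 2 (-1.0, 0.0873) or 4 (-1.0, 0.083), without rMC-1 replicate 1 (-0.90, 0.149) or 3 (-0.98, 0.129), and with library totals (-0.67, 0.182). The log2 ratio of Pfkfb4 to Pfkfb3 was -3.85 ± 0.39 in Primary MC, -2.52 ± 0.91 in SIRMu-1 and -1.52 ± 0.23 in rMC-1.

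In lower glycolysis, 1 of 5 tested genes was lower in SIRMu-1, where 24.4% of all genes were lower, with a median of -0.30. In rMC-1, 2 of the 5 were higher, where 31.9% of all genes were higher, with a median of -0.07. Gapdh, the NADH-forming step, was at 497, 384, 611 and 704 CPM in Primary MC, 842, 598, 756, 849 and 598 in SIRMu-1, and 1134, 810 and 1059 in rMC-1. It was higher in rMC-1 by 0.87 ± 0.22 (edgeR adjusted p = 0.00353). The SIRMu-1 value of 0.41 ± 0.19 (edgeR adjusted p = 0.102) was called only without Primary MC replicate 4 (0.55, 0.0439) among the libraries left out. SIRMu-1 against rMC-1 gave -0.46 ± 0.21 (edgeR adjusted p = 0.07). This was called with library totals (-0.91, 0.00323), by DESeq2 (-0.49, 0.0415), in a fit of the 2 lines alone (-0.45, 0.0393), and without Primary MC replicate 2 (-0.46, 0.0405) or rMC-1 replicate 2 (-0.69, 0.023). Gapdh is widely used as a reference gene, and its level was not the same in rMC-1 and the primary cultures.

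Pgk1, the first ATP-forming step, was at 473 to 637 CPM in Primary MC, 301 to 401 in SIRMu-1 and 352 to 517 in rMC-1. It was lower in SIRMu-1 by -0.56 ± 0.15 (edgeR adjusted p = 0.00852) and gave -0.25 ± 0.17 in rMC-1 (edgeR adjusted p = 0.202). Between the lines its value of -0.31 ± 0.16 (edgeR adjusted p = 0.104) was called without rMC-1 replicate 2 (-0.55, 0.0137) and with library totals (-0.76, 0.00273). Pgam1, the phosphoglycerate mutase, was at 432 to 537 CPM in Primary MC, 361 to 428 in SIRMu-1 and 816, 560 and 784 in rMC-1. The rMC-1 libraries were above all others, by 0.56 ± 0.15 against Primary MC (edgeR adjusted p = 0.0045). SIRMu-1 gave -0.28 ± 0.13 (edgeR adjusted p = 0.0928), called without rMC-1 replicate 2 (-0.30, 0.0331). Eno1 and Pkm, which make phosphoenolpyruvate and pyruvate, were not called in any of the 3 comparisons. With library totals both were lower in SIRMu-1 than in rMC-1 (Eno1 -0.63, edgeR adjusted p = 0.0472; Pkm -0.80, edgeR adjusted p = 0.0112). Eno1 spanned 283 to 555 CPM in Primary MC, 218 to 345 in SIRMu-1 and 258 to 402 in rMC-1, and Pkm 301 to 580, 230 to 360 and 315 to 430. Eno2, the neuronal enolase, had 6, 1 and 3 counts in Primary MC, SIRMu-1 and rMC-1, too few to compare. RefSeq lists 82 pseudogenes named after Gapdh, 31 after Eno1, 19 after Pkm, 13 after Pgam1 and 8 after Pgk1, so the counts of these genes are uncertain too.

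Of the lactate carriers tested among the 34 genes, Slc16a3 was close to 0 in both lines and Slc16a1 was higher in rMC-1. Slc16a3 encodes MCT4, the low-affinity carrier that exports lactate from glycolytic cells. It was at 26.6, 33.9, 12.3 and 45 CPM in Primary MC, at 0.427, 0.103 and 0.079 in rMC-1, and at 0.0711 in SIRMu-1 replicate 1 and 0 in the other 4 SIRMu-1 libraries. These levels rest on 2874 counts in Primary MC, 23 in rMC-1 and 2 in SIRMu-1. Slc16a3 passed the expression filter through the Primary MC libraries, so its difference from both lines was in part built into the filter. The primary level was 2090 times that of SIRMu-1 (95% counting interval 578 to 17300; edgeR adjusted p = 3.74e-06). It was 156 times that of rMC-1 (104 to 247; edgeR adjusted p = 6.12e-06). The rMC-1 level was 13.4 times that of SIRMu-1 (3.3 to 117; edgeR adjusted p = 0.0131). This last call was lost without rMC-1 replicate 1 (-2.46, 0.0751), which held the highest rMC-1 level. It was also lost with the SIRMu-1 libraries that had the drugs alone (-5.58, 0.0645) or with those that had none alone (-3.01, 0.0588). The fitted change went from -3.45 to -5.59 without SIRMu-1 replicate 1.

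Slc16a1 encodes MCT1, the carrier that moves lactate and pyruvate in either direction. Its levels were 44.8, 63.5, 112 and 62.5 CPM in Primary MC, 40.9, 29.7, 42.9, 40.7 and 60.7 in SIRMu-1, and 222, 270 and 314 in rMC-1. All 3 rMC-1 libraries were above all others, while SIRMu-1 and Primary MC overlapped. Slc16a1 was higher in rMC-1 by 1.92 ± 0.29 (edgeR adjusted p = 0.000114), and the lines differed by -2.64 ± 0.28 (edgeR adjusted p = 9.64e-06). The lower level in SIRMu-1 (-0.72 ± 0.26, edgeR adjusted p = 0.0375) depended on single libraries. It was not called without Primary MC replicate 2 (-0.77, 0.0509) or 3 (-0.41, 0.14), or with library totals (-0.66, 0.0553). Nor was it without SIRMu-1 replicate 1 (-0.70, 0.0703), 2 (-0.61, 0.0722), 3 (-0.72, 0.0664) or 4 (-0.70, 0.0725). The log2 ratio of Slc16a3 to Slc16a1 was -0.75, -0.91, -3.20 and -0.47 in Primary MC, -8.85 to -11.66 in SIRMu-1, and -8.97, -11.22 and -11.73 in rMC-1. Every library of both lines lay below every primary one. Bsg, the chaperone that takes MCT1 and MCT4 to the membrane, is named here after its values were seen. It was at 682 ± 97.1 CPM in Primary MC, 401 ± 81.3 in SIRMu-1 and 1018 ± 84.2 in rMC-1, lower by -0.77 ± 0.16 (edgeR adjusted p = 0.00207) and higher by 0.58 ± 0.18 (edgeR adjusted p = 0.0118).

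Lactate dehydrogenase is a tetramer of A subunits, which favour lactate formation, and B subunits, which favour its use. Ldha was at 164, 142, 167 and 378 CPM in Primary MC, 149, 100.4, 160.3, 159.9 and 192 in SIRMu-1, and 328, 229 and 329.5 in rMC-1. Primary MC replicate 4 was above every other library, and the other 3 lay below rMC-1. Against Primary MC, Ldha was not called in SIRMu-1 (-0.48 ± 0.28, edgeR adjusted p = 0.189) or rMC-1 (0.47 ± 0.32, edgeR adjusted p = 0.205). In rMC-1 it was called without Primary MC replicate 4 (0.90, 0.00349) and with library totals (0.91, 0.0414). SIRMu-1 was below rMC-1 by -0.95 ± 0.31 (edgeR adjusted p = 0.0166), a call lost with the 2 SIRMu-1 libraries that had the drugs alone (-0.74, 0.17). Ldhb measured 34, 33.3, 48.9 and 47 CPM in Primary MC, 24.2, 39, 32.6, 29.8 and 30.5 in SIRMu-1, and 9.34, 9.68 and 10.9 in rMC-1. The rMC-1 libraries lay far under both other groups, by -2.03 ± 0.19 against Primary MC (edgeR adjusted p = 3.08e-06), and SIRMu-1 stood above them by 1.65 ± 0.18 (edgeR adjusted p = 1.58e-05). In SIRMu-1, Ldhb gave -0.39 ± 0.16 (edgeR adjusted p = 0.0642), called without Primary MC replicate 1 (-0.47, 0.0435) or 2 (-0.48, 0.0376) or SIRMu-1 replicate 2 (-0.48, 0.0249).

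The log2 ratio of Ldhb to Ldha was -2.27, -2.09, -1.77 and -3.01 in Primary MC, -2.62, -1.37, -2.30, -2.42 and -2.66 in SIRMu-1, and -5.13, -4.56 and -4.92 in rMC-1. The first 2 groups overlapped, and rMC-1 stood apart on the A-subunit side. RefSeq lists 30 pseudogenes named after Ldha and 1 after Ldhb, so the size of the ratio is uncertain.

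**Figure D3:**
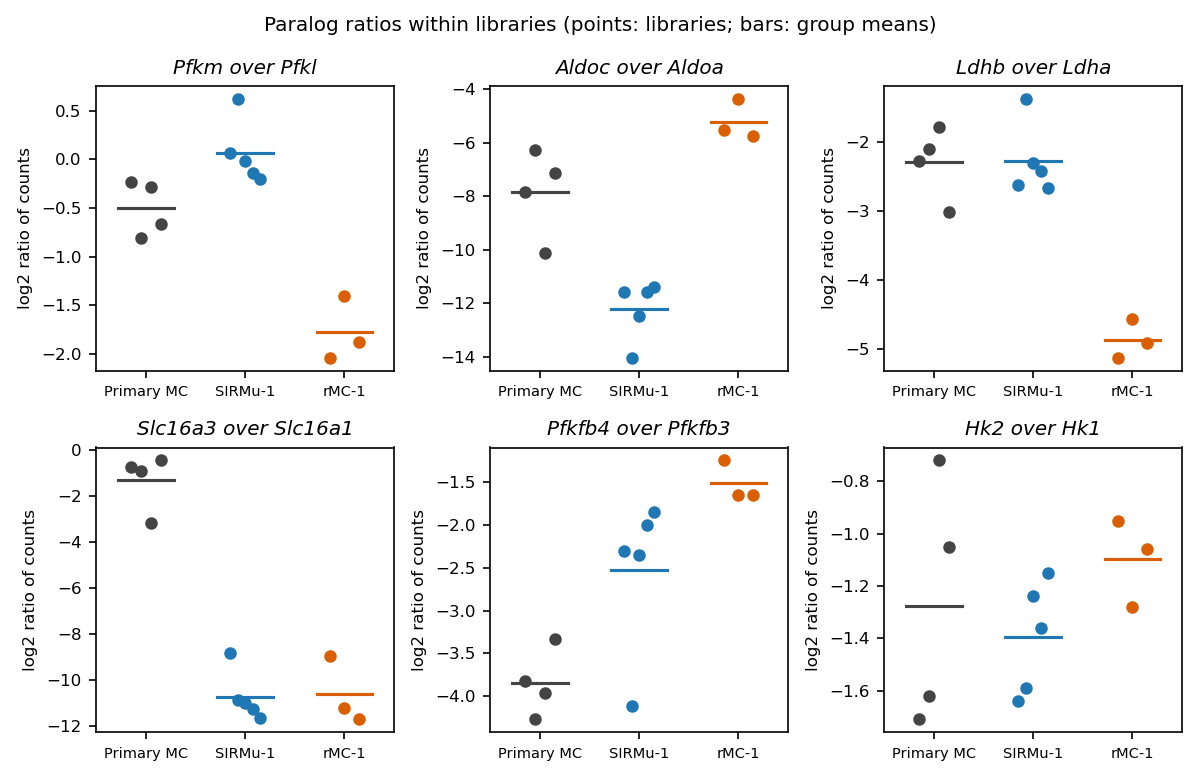
Log2 ratio of the counts of 2 related genes within each library (y) by group (x) for 6 of the 9 pairs compared, with a point per library and a bar at the group mean. Ldhb over Ldha lies between -5.13 and -4.56 in rMC-1 and at -3.01 or above elsewhere. Slc16a3 over Slc16a1 lies at -3.20 or above in Primary MC and at -8.85 or below in both lines, and Hk2 over Hk1 overlaps in all 3 groups.

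Ratios of 9 related pairs were compared in all 3 contrasts by a two-sided exact permutation test, 27 tests in all. None had a Benjamini-Hochberg adjusted value under 0.05, the smallest being 0.0603, although 14 had an unadjusted p under 0.05 and in 15 the groups did not overlap. The pairs of Slc2a3 with Slc2a1 and of Eno2 with Eno1 hold almost no counts of the first gene, so their ratios show little but the second gene. In the 21 tests of the other 7 pairs, 12 had an unadjusted exact permutation p under 0.05 and 13 had groups that did not overlap. The sizes of the groups limit the test: the smallest p they allow is 0.00794 for SIRMu-1 against Primary MC, 0.0286 for rMC-1 against Primary MC and 0.0179 between the lines. Ldhb over Ldha differed by -2.58 in rMC-1 against Primary MC (exact permutation p = 0.0286, adjusted 0.0643) and by 0.01 in SIRMu-1 (exact permutation p = 0.96, adjusted 0.964). Slc16a3 over Slc16a1 differed by -9.41 in SIRMu-1 (exact permutation p = 0.00794, adjusted 0.0603) and by -9.31 in rMC-1 (exact permutation p = 0.0286, adjusted 0.0643). With so few Slc16a3 counts, these sizes depend on the 0.5 counts added to each gene. Pfkm over Pfkl differed by 0.56 in SIRMu-1 (adjusted value from exact permutation 0.0603) and by -1.28 in rMC-1 (0.0643). Aldoc over Aldoa differed by -4.38 in SIRMu-1 (adjusted value from exact permutation 0.0603) and by 2.62 in rMC-1 (0.0908).

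The pyruvate dehydrogenase kinases, which phosphorylate and shut the complex, were higher in rMC-1 at 3 of 4 genes, where 31.9% of all genes were. The complex's own E1 genes were not called against Primary MC on the TMM scale. Pdk1, the hypoxia-inducible kinase, was at 17.3 to 25.1 CPM in Primary MC, 13.3 to 22.1 in SIRMu-1 and 29.2, 40.4 and 38.8 in rMC-1. It was higher in rMC-1 by 0.84 ± 0.19 (edgeR adjusted p = 0.00179) and gave -0.18 ± 0.17 in SIRMu-1 (edgeR adjusted p = 0.402). Pdk2, the widely expressed kinase, was at 30.8, 21.7, 16 and 33.5 CPM in Primary MC, 13.6 to 16.9 in SIRMu-1 and 37.1, 44.1 and 40 in rMC-1. It was lower in SIRMu-1 by -0.80 ± 0.19 (edgeR adjusted p = 0.00478) and higher in rMC-1 by 0.66 ± 0.21 (edgeR adjusted p = 0.0144). Pdk3 was at 31.7, 30.8, 28.5 and 15.7 CPM in Primary MC, 14.1, 9.79, 18.8, 21.1 and 25.3 in SIRMu-1 and 59, 42.8 and 48.2 in rMC-1. Its level in rMC-1 was higher by 0.91 ± 0.31 (edgeR adjusted p = 0.0193), a call lost without rMC-1 replicate 1 (0.84, 0.0579). In SIRMu-1 its value of -0.58 ± 0.27 (edgeR adjusted p = 0.0988) was called without Primary MC replicate 4 (-0.77, 0.0298) or SIRMu-1 replicate 5 (-0.77, 0.0419). For these 3 kinases every rMC-1 library was above every other library.

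Pdk4, the kinase that fasting and fatty acids induce, went the other way. It was at 0.749, 1.27, 0.671 and 1.15 CPM in Primary MC and at 0.285, 0.126, 0.0413, 0.132 and 0.0375 in SIRMu-1, with no count in rMC-1. Pdk4 passed the expression filter through the Primary MC libraries, so its difference from both lines was in part built into the filter. With 94 and 18 counts, Primary MC was 7.59 times SIRMu-1 (95% counting interval 4.55 to 13.4; edgeR adjusted p = 0.00222). Against a floor of 3 counts over the group, it was at least 39.2-fold higher than rMC-1 (edgeR adjusted p = 7.68e-05). Pdha1 and Pdhb, which encode the E1 subunits of the complex, stayed within 81.8 to 162 and 54.4 to 94.8 CPM over all libraries. Pdha1 was called in SIRMu-1 against rMC-1 alone (0.48 ± 0.14, edgeR adjusted p = 0.00892), and not there without rMC-1 replicate 2 (0.41, 0.0606) or 3 (0.30, 0.133) or with library totals (0.04, 0.843). Pdhb was not called in any of the 3, at 0.26 ± 0.14 in SIRMu-1 and 0.17 ± 0.16 in rMC-1. With library totals it was higher in rMC-1 than in Primary MC (0.64, 0.00236) and lower in SIRMu-1 than in rMC-1 (-0.37, 0.0397). In SIRMu-1 against Primary MC it passed without replicate 5 of that line (0.33, 0.0242) and with the drug-free SIRMu-1 libraries alone (0.34, 0.0477).

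Of the branch enzymes and the sensor, Pgd alone was called. Pgd, which makes NADPH in the pentose phosphate pathway, was at 331, 280.1, 277 and 581 CPM in Primary MC, 351, 217, 352, 349 and 243 in SIRMu-1, and 139, 90.1 and 121 in rMC-1. The rMC-1 libraries lay under all others, by -1.66 ± 0.30 against Primary MC (edgeR adjusted p = 0.000367), while SIRMu-1 gave -0.28 ± 0.25 (edgeR adjusted p = 0.374). Txnip, a protein that glucose induces through ChREBP and MondoA and that restrains glucose uptake, was at 129, 146, 317 and 75.9 CPM in Primary MC, 118 to 228 in SIRMu-1 and 172, 238 and 169 in rMC-1. The primary libraries alone spanned the levels of both lines. The Txnip value in rMC-1, 0.21 ± 0.40 (edgeR adjusted p = 0.644), was called without Primary MC replicate 3 (0.72, 0.0456), and that of SIRMu-1 against rMC-1 with library totals (-0.82, 0.0441). Akr1b1, the aldose reductase that turns excess glucose into sorbitol, was at 431, 238, 188 and 759 CPM in Primary MC, 546, 364, 388, 331 and 180 in SIRMu-1, and 220.2, 186 and 234 in rMC-1. It gave -0.16 ± 0.39 in SIRMu-1 (edgeR adjusted p = 0.759) and -0.92 ± 0.45 in rMC-1 (edgeR adjusted p = 0.0874), the latter called without Primary MC replicate 3 (-1.16, 0.029). RefSeq lists 5 pseudogenes named after Akr1b1 and 1 after Pgd.

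Genes of neighbouring pathways were counted from fixed lists. The background shares above apply to them as well, each to the counts on its own scale. The serine branch leaves glycolysis at 3-phosphoglycerate, and it was higher in both lines. There 5 of 6 genes were higher in SIRMu-1 (median 1.36) and 6 of 6 in rMC-1 (median 2.04), with none lower. Psat1, its transaminase, was at 38.7 ± 16.1 CPM in Primary MC, 164 ± 30.8 in SIRMu-1 and 448 ± 86.6 in rMC-1. It was higher by 2.09 ± 0.27 (edgeR adjusted p = 0.000129) and 3.53 ± 0.31 (edgeR adjusted p = 1.55e-06). Phgdh, the enzyme at the branch point, was at 85.6 ± 26.3, 249 ± 32.9 and 340.1 ± 84.7 CPM in the same order, higher in SIRMu-1 by 1.54 ± 0.22 (edgeR adjusted p = 0.000196). The mitochondrial Shmt2, which splits serine, was higher in SIRMu-1 by 1.52 ± 0.16 (edgeR adjusted p = 3.46e-05). In rMC-1, Psph, the last enzyme of serine synthesis, was higher by 2.16 ± 0.29 (edgeR adjusted p = 4.6e-05) and Mthfd2, of mitochondrial folate metabolism, by 2.06 ± 0.19 (edgeR adjusted p = 2.86e-06). Of 7 genes of the shuttles that carry cytosolic NADH to the mitochondrion, 1 was lower in SIRMu-1, and 5 were higher and 2 lower in rMC-1 (5 and 0 with library totals). Of the NADH shuttle genes with a mean log2 CPM of at least 3, those that changed most in rMC-1 were Gpd2 (1.68 ± 0.19, edgeR adjusted p = 1.26e-05), Got2 (1.22 ± 0.11, edgeR adjusted p = 1.62e-06) and Gpd1l (1.12 ± 0.20, edgeR adjusted p = 0.000325).

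Of 21 tested transporters and isozymes outside the 34 genes, 13 were lower and 1 higher in SIRMu-1, and 15 lower and 2 higher in rMC-1 (12 and 3 with library totals). Another 10 were too low to test. Bpgm, which makes 2,3-bisphosphoglycerate, was at 253.5 ± 85.6 CPM in Primary MC and 26.3 ± 3.14 in SIRMu-1, lower by -3.27 ± 0.21 (edgeR adjusted p = 1.26e-06). Eno3, the muscle enolase, was higher in SIRMu-1 by 2.02 ± 0.23 (edgeR adjusted p = 6.25e-05). Slc2a13, a myo-inositol transporter of the GLUT family, was at 74.2 ± 29.9 CPM in Primary MC and 53.6 ± 23.5 in SIRMu-1, and had 1 count in rMC-1 (edgeR adjusted p = 2.5e-07 against Primary MC). Slc2a10, for GLUT10, was lower in rMC-1 by -6.08 ± 0.54 (edgeR adjusted p = 1.84e-06), and Slc16a7, for the lactate carrier MCT2, by -2.75 ± 0.42 (edgeR adjusted p = 0.000117). Targets of hypoxia-inducible factor outside glycolysis gave 7 lower and 1 higher of 16 in SIRMu-1, and 6 lower and 4 higher in rMC-1 (2 and 5 with library totals). P4ha2, a collagen prolyl hydroxylase among them, was lower in both lines (-1.59 ± 0.24, edgeR adjusted p = 0.000306; -3.05 ± 0.31, edgeR adjusted p = 4.48e-06). Egln3, an oxygen-sensing hydroxylase, was lower in SIRMu-1 (-2.51 ± 0.62, edgeR adjusted p = 0.00619) and higher in rMC-1 (3.31 ± 0.66, edgeR adjusted p = 0.000811). Ndrg1, a stress-response gene, was lower in SIRMu-1 by -3.51 ± 0.75 (edgeR adjusted p = 0.00273), and Adm, for adrenomedullin, was lower in rMC-1 by -6.81 ± 0.67 (edgeR adjusted p = 3.95e-06). With the 2 SIRMu-1 libraries that had the drugs alone, the calls of Ndrg1 (-2.67, 0.0689) and Egln3 (-1.50, 0.0565) in SIRMu-1 were lost. The call of Ndrg1 was also lost when libraries that share a file code were summed (-3.09, 0.0785).

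Of 11 regulators of glycolytic genes, 0 were called in SIRMu-1 by edgeR, where 3 had an unadjusted p under 0.05 and DESeq2 called 1 higher and 2 lower. In rMC-1, 5 were higher and 1 lower (8 and 0 with library totals). Myc, a transcription factor that drives glycolytic genes, was at 19.95 ± 7.93 CPM in Primary MC, 20.2 ± 4.57 in SIRMu-1 and 101 ± 13.6 in rMC-1, higher there by 2.34 ± 0.28 (edgeR adjusted p = 1.91e-05). Prkaa2 was higher in rMC-1 by 1.23 ± 0.43 (edgeR adjusted p = 0.0238), a call lost without Primary MC replicate 1 (1.09, 0.0616) or rMC-1 replicate 2 (1.07, 0.0711). The lower regulator was Epas1 (-2.11 ± 0.71, edgeR adjusted p = 0.0186). Its call was lost with library totals (-1.69, 0.0565), without Primary MC replicate 4 (-1.55, 0.0548) and without any single rMC-1 library. The pentose phosphate pathway had 2 higher and 2 lower of 9 in SIRMu-1 (2 and 0 with library totals) and 3 higher and 2 lower in rMC-1 (5 and 2). Prps1, which makes the ribose donor for nucleotides, was higher in both (0.73 ± 0.10, edgeR adjusted p = 0.000219; 1.66 ± 0.12, edgeR adjusted p = 3.75e-07). Glycogen genes had 2 lower of 10 in SIRMu-1, and 1 higher and 5 lower in rMC-1, where the split was 3 and 2 with library totals. In rMC-1, Pygl, the liver phosphorylase, was lower (-2.31 ± 0.49, edgeR adjusted p = 0.00128) and Pygb, the brain phosphorylase, higher (1.36 ± 0.23, edgeR adjusted p = 0.000266). In the citric acid cycle, 5 were higher and 2 lower of 15 in SIRMu-1 and 6 higher and 4 lower in rMC-1 (10 and 2 with library totals). Ogdh, of the oxoglutarate dehydrogenase complex, was lower in both (-0.54 ± 0.10, edgeR adjusted p = 0.000828; -1.14 ± 0.11, edgeR adjusted p = 3.95e-06). Pyruvate entry and the rest of the dehydrogenase complex gave 1 higher of 8 in SIRMu-1 (1 higher and 1 lower with library totals) and 1 higher and 1 lower in rMC-1 (5 and 0). The higher one in rMC-1 was Pdp2, a phosphatase that reactivates the complex (1.89 ± 0.25, edgeR adjusted p = 3.91e-05). The hexosamine and polyol list had 2 lower of 8 in SIRMu-1 (2 lower and 1 higher with library totals) and 3 lower in rMC-1 (3 lower and 4 higher), among them Pgm3, of UDP-GlcNAc synthesis (-1.41 ± 0.18, edgeR adjusted p = 3.08e-05). Gluconeogenesis had 4 genes tested, with 2 higher and 1 lower in SIRMu-1 and 2 lower in rMC-1 (1 lower and 2 higher with library totals). One of the higher genes in SIRMu-1, Pck2, was at the threshold (edgeR adjusted p = 0.0499), and with summed file codes no gluconeogenesis gene was called there.

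Counts this small moved with single libraries. Without Primary MC replicate 4 or SIRMu-1 replicate 2, the lower genes of the pentose phosphate pathway in SIRMu-1 went from 2 to 0, and without Primary MC replicate 4 the higher ones in rMC-1 went from 3 to 5. Lower regulators in SIRMu-1 went from 0 to 2 without Primary MC replicate 4 and to 3 without SIRMu-1 replicate 5. Lower glycogen genes in rMC-1 went from 5 to 3 without rMC-1 replicate 1, and lower targets of hypoxia-inducible factor from 6 to 3 without rMC-1 replicate 2. Higher targets of hypoxia-inducible factor in SIRMu-1 went from 1 to 3 without Primary MC replicate 3. Higher hexosamine and polyol genes in rMC-1 went from 0 to 2 without SIRMu-1 replicate 5, which enters that comparison through the shared spread. In the other neighbouring lists and comparisons with Primary MC, leaving out 1 library moved a count past 1.5 times by 1 gene at most.

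**Figure D4:**
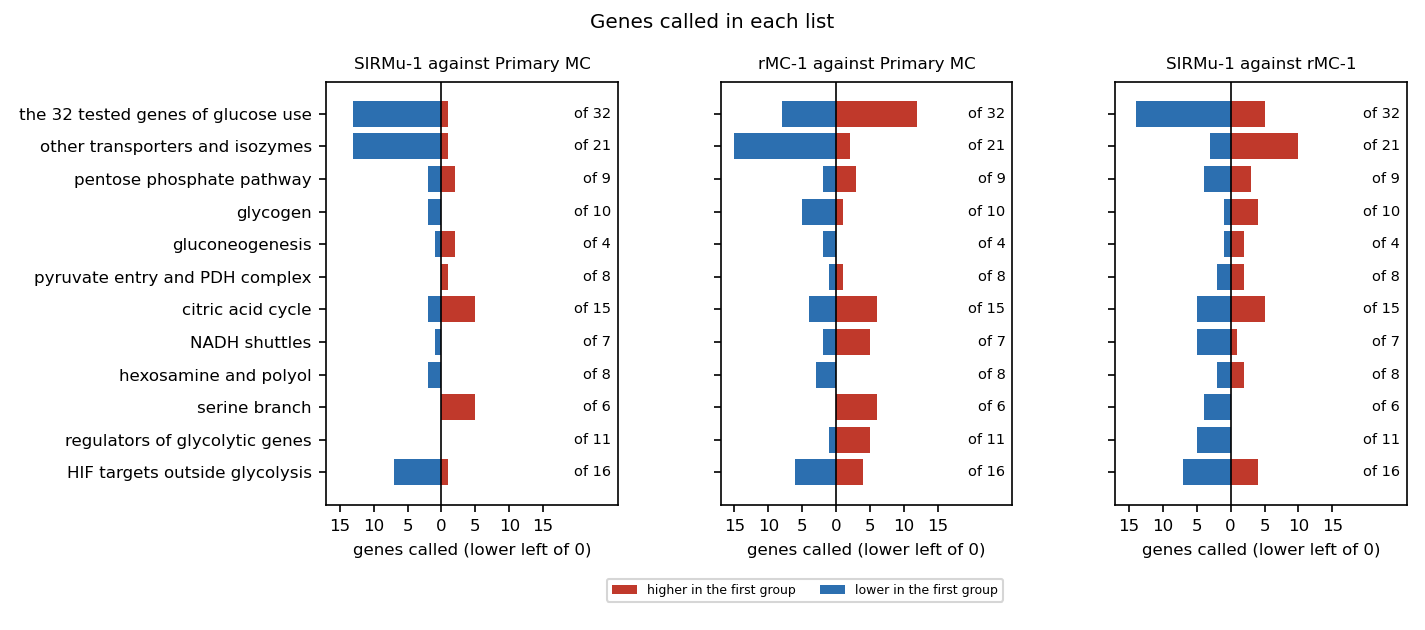
Number of genes called higher (red, right of 0) and lower (blue, left of 0) in the first-named group (x) for the genes described here and for each neighbouring list (y), in the 3 comparisons, with the number tested at the right edge of each panel. The serine branch has bars to the right alone in both comparisons with Primary MC, with 5 and 6 of 6 genes.

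Each comparison was repeated under 22 alternatives. Hk1, Pfkp, Aldoc, Slc16a3 and Pdk4 were called in SIRMu-1 against Primary MC in all of them that tested the gene (5 of 14). In rMC-1 against Primary MC these were Pfkl, Pfkfb1, Pfkfb2, Gapdh, Pgam1, Ldhb, Slc16a1, Slc16a3, Pdk1, Pdk2, Pdk4 and Pgd (12 of 20). For SIRMu-1 against rMC-1 they were Slc2a1, Pfkl, Pfkp, Aldoc, Pfkfb2, Pgam1, Ldhb, Slc16a1, Pdk1, Pdk2, Pdk3 and Pgd (12 of 19). The share of all called genes that kept their call was not counted, so these numbers have no background to be set against. Under a filter of over 1 CPM in at least 3 libraries, Pdk4 was not tested and so could not lose its call. Slc16a3, Pdk4 and Aldoc passed the main filter through the groups where they were high. Their place in these lists was thus in part built into it. With the 2 SIRMu-1 libraries that shared the drugs of the primary cultures, 7 calls in SIRMu-1 ended, with edgeR adjusted p-values from 0.0547 to 0.353. They were those of Hk2 (-0.65), Gpi (-0.39), Pfkl (-0.41), Pfkfb1 (1.11), Pgk1 (-0.54), Slc16a1 (-0.44) and Pdk2 (-0.84), while the change of Pdk4 went to -4.46. With the 3 SIRMu-1 libraries free of the drugs, the call of Pfkfb3 ended (-1.0, 0.0978). Codes in the names of the count files are shared by the first 2 replicates of Primary MC, the first 2 of rMC-1, SIRMu-1 replicates 1 to 3, and the last 2 of SIRMu-1. What they stand for is not known here, and libraries that share one may share an animal or culture. When libraries with the same code were summed, which left 7 samples, some calls ended although the changes kept about their size. In SIRMu-1 against Primary MC these were Slc2a1 (-1.09), Hk2 (-1.0), Gpi (-0.53), Pfkfb3 (-1.20), Slc16a1 (-0.79) and Pdk2 (-0.78), with edgeR adjusted p-values from 0.0531 to 0.133. In rMC-1 they were Slc2a1 (0.80), Aldoa (-0.41), Aldoc (1.90), Tpi1 (1.29), Pfkfb3 (-0.97) and Pfkfb4 (1.16), with edgeR adjusted p-values from 0.064 to 0.0928. Between the lines they were Gpi (-0.51), Ldha (-1.04), Pfkfb4 (-1.28) and Slc16a3 (-3.53), with edgeR adjusted p-values from 0.0563 to 0.115. The drug-matched SIRMu-1 libraries against rMC-1 ended the calls of Gpi (-0.34), Pfkfb1 (-1.13), Pfkfb4 (-1.20), Ldha (-0.74), Slc16a3 (-5.58) and Pdk4 (3.38), with edgeR adjusted p-values from 0.055 to 0.225. With library totals, genes that became lower in SIRMu-1 than in rMC-1 beside those given above were Hk1 (-0.50, 0.0134), Hk2 (-0.78, 0.0207), Pfkm (-0.40, 0.019) and Tpi1 (-1.41, 0.0137).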

How the data were processed

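Polyadenylated RNA of 12 cultures had been sequenced with a KAPA stranded kit on a NextSeq500, per the labels' protocols. The submitters' processing notes name STAR 2.5.3a, cutadapt 1.8.1, edgeR 3.18.1 and the genome build rn6. Which tool did what, the annotation and whether counting used the strand are not given in the sources used; overlapping genes on opposite strands are therefore uncertain. The authors deposited whole-number read counts per gene, not normalized, for 17315 genes, with reads in genes at 55.8% to 63.0% of a library, reads outside genes at 24.2% to 30.3%, reads with several mapping places at 9.47% to 12.3%, unmapped reads at 1.84% to 2.54% and ambiguous reads at 0.152% to 0.193%. The 12 columns of a deposited log2 CPM table were not used.

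Counts were analysed in R 4.3.3 with edgeR 4.0.16: expression filter (11321 genes kept, 5994 not tested), TMM factors, and a quasi-likelihood fit of 3 group means (9 residual degrees of freedom), with the Benjamini-Hochberg adjustment over all genes tested and a threshold of 0.05. DESeq2 1.42.0 was an alternative. Related genes were compared by log2 count ratios with 0.5 added. Intervals and floors cover counting error only. The script was checked on simulated counts with known changes in a small part of the genes. That check does not test the scaling between groups where most genes differ.

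The 34 genes, the neighbouring lists and the markers were chosen with earlier results of these data known. All 34 genes are named. Of each neighbouring list, at most the 3 called genes with the largest change and a mean log2 CPM of at least 3 are named per comparison. Bsg, of the list of transporters and isozymes, is outside this rule and was named after its values were seen. The labels call the libraries of a group biological replicates without saying which came from the same animal. The p-values then measure only how these libraries spread, which may be technical, and each line is 1 line. No pair of libraries of a group agreed within sampling noise. RefSeq symbols, pseudogenes and start-site windows are from GRCr8, not the files' build.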

Additional observations from a re-analysis of the deposited data

Results flagged for a closer look

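In 64 groups of 4 or 5 libraries, 6 genes had 1 library standing apart from the rest of its group by the gap between them, where chance alone gives about 1 in 20. Primary MC replicate 4 was the library in 3 of them. It was at 283 CPM for Hk1 against 215 to 222 in the other primary libraries, at 378 CPM for Ldha against 142 to 167, and at 15.7 CPM for Pdk3 against 28.5 to 31.7. SIRMu-1 replicate 2 was at 30.2 CPM for Pfkfb3, where the others of that line had 9.07 to 10.2, and at 28.9 CPM for Pfkfb2 against 14.8 to 17. Its cell cycle genes summed to 201 CPM, and those of the other 4 to 637 to 1067; their part in these values was not tested. SIRMu-1 replicate 1 was at 0.0711 CPM for Slc16a3, which is 2 counts, where the other 4 had none.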

How the results depend on the processing

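Of the genes described, 14 were called in SIRMu-1 against Primary MC, 20 in rMC-1 against Primary MC and 19 in SIRMu-1 against rMC-1. Leaving out each library in turn gave 13 to 17, 16 to 21 and 18 to 20, and over all genes 4572 to 5339, 7423 to 8201 and 6249 to 7287. In SIRMu-1 against Primary MC, summing the libraries with a shared file-name code gave 8 of these genes and 3173 of all genes, and keeping the 2 SIRMu-1 libraries with the drugs gave 7 and 3415; both leave fewer samples. The replicate numbers were taken as a block in another fit, which called 17, 21 and 21. Same-numbered libraries deviated together with correlations of -0.06 to 0.11, and other pairs with -0.18 to 0.13, so the numbers do not pair the libraries.

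No called change took the opposite sign under an alternative; these uncalled values did, and the cause was not tested. Library totals gave, in rMC-1 against Primary MC, 0.40 for Gpi, 0.31 for Pfkm, 0.22 for Pgk1, 0.32 for Eno1, 0.39 for Pkm and 0.27 for Pdha1, and in SIRMu-1 against rMC-1, -0.40 for Pfkm, -0.28 for Aldoa and -0.37 for Pdhb. The replicate block gave 0.03 for Txnip and 0.20 for Akr1b1 in SIRMu-1, and 0.03 for Gpi and 0.05 for Pkm in rMC-1. Summed codes gave -0.02 for Pfkm and -0.06 for Pdhb between the lines. SIRMu-1 with the drugs alone gave 0.04 for Pdk1 against Primary MC and -0.08 for Pdhb against rMC-1. SIRMu-1 without them alone gave 0 for Txnip and 0.02 for Akr1b1 in SIRMu-1, 0.01 for Gpi and 0 for Pkm in rMC-1, and -0.12 for Pfkm, -0.02 for Aldoa and 0.06 for Pfkfb3 between the lines. A fit of the 2 groups alone gave 0 for Gpi in rMC-1. Leaving out 1 library gave, in SIRMu-1, -0.39 to 0.37 for Txnip, -0.40 to 0.34 for Akr1b1, -0.36 to 0.24 for Pfkfb4 and -0.40 to 0.02 for Pgd; in rMC-1, -0.15 to 0.12 for Gpi, -0.24 to 0.13 for Eno1, -0.19 to 0.15 for Pkm, -0.08 to 0.30 for Pfkp and -0.03 to 0.72 for Txnip; and between the lines, -0.12 to 0.10 for Pfkm, -0.04 to 0.13 for Pdhb and -0.62 to 0.03 for Pfkfb3. Depth limits Slc2a3, Eno2, Tpi1, and Slc16a3 and Pdk4 outside the primary cultures.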
